A study of Mus musculus with 32 samples.

Results

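The genes described here are 36 members of the integrated stress response and of the amino acid supply that it controls, followed in mouse bone marrow-derived macrophages. They were chosen by name, as the rows of the count table that carry the listed symbols, and make up 36 of the 56953 genes in the table. The study crossed 2 genotypes with 4 treatments of 24 h: wild type (WT) and Acod1 knockout (KO), each left untreated (control), given the synthetic glucocorticoid dexamethasone at 100 nM, given the bacterial cell wall component lipopolysaccharide (LPS) at 100 ng (the labels give no volume), or given both agents. Each of the 8 groups had 4 libraries, 32 in all. Acod1, also called Irg1, encodes the enzyme that makes itaconate from cis-aconitate. Marrow came from femurs and tibias of mice aged 8 to 12 weeks, either C57BL/6J mice or Irg1+/+ and Irg1-/- mice, and the labels do not say which of the first 2 sources a WT library had. All groups were grown in medium with L929 cell supernatant as the source of M-CSF, the growth factor that drives marrow cells to become macrophages. The labels name no separate mice or cultures for the replicates, and the spread that the p-values rest on is that between libraries, which may be technical in part.

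The integrated stress response begins with kinases that phosphorylate the translation factor eIF2alpha: PERK, encoded by Eif2ak3, responds to unfolded proteins in the endoplasmic reticulum, and GCN2, encoded by Eif2ak4, responds to uncharged tRNA when amino acids run short. Phosphorylated eIF2alpha slows protein synthesis in general but lets ribosomes reach the coding sequence of Atf4, so that ATF4 is controlled to a large part at translation, which messenger RNA does not show. ATF4, paired with partners such as C/EBP gamma, binds composite C/EBP-ATF response elements (CARE) and raises genes that make, import and charge amino acids. In activated macrophages the serine and one-carbon enzymes among them feed nucleotide, glutathione and methyl-group synthesis. Neither eIF2alpha phosphorylation nor protein was measured here.

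Promoter sequences are shown first because ATF4 is known to act through the CARE letters on some of the genes listed. RefSeq start sites of build GRCm38.p6, from 250 bases before to 50 bases after the start, were matched by symbol to 32 of the 36 genes, in 40 windows. Cth, Slc1a5, Slc38a1 and Slc7a5 had no window. The core searched was TGATGNAA on both strands, written TTNCATCA where it lies on the opposite strand. It occurred in 9 of the 40 windows (22.5%), each of a different gene, and in 3.97% of the 32851 windows of all genes, which is a description and not a binding site. Each of the 9 matches is printed within 30 bases, 5′ to 3′ on the strand of the gene, with the core in capitals. The 4 enzymes were Asns (chr6:7693214-7693243 on the minus strand), Pycr1 (chr11:120643833-120643862 on the minus strand), Got1 (chr19:43524689-43524718 on the minus strand) and Pck2 (chr14:55540152-55540181 on the plus strand).
Asns: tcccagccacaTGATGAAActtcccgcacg
Pycr1: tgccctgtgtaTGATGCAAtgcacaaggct
Got1: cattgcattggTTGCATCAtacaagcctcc
Pck2: agccttcaaagTTACATCAgtatcttacag

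The 3 stress regulators with a match were Trib3 (chr2:152344028-152344057 on the minus strand), Nupr1 (chr7:126625562-126625591 on the minus strand) and Chac1 (chr2:119351038-119351067 on the plus strand), and the remaining genes were the neutral amino acid transporter Slc1a4 (chr11:20332699-20332728 on the minus strand) and the lipoprotein receptor Vldlr (chr19:27216809-27216838 on the plus strand).
Trib3: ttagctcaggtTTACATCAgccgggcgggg
Nupr1: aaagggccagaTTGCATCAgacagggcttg
Chac1: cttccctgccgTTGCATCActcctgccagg
Slc1a4: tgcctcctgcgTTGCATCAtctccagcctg
Vldlr: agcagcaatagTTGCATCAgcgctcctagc

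In Asns, Got1, Nupr1, Pck2 and Pycr1 the core began 23, 102, 110, 103 and 103 bases before the start site. In Chac1 and Vldlr it began 193 and 200 bases before it, in Slc1a4 4 bases before it, and in Trib3 the 15th base of the transcript was the first of the core. Asns and Chac1 are printed with all 250 bases before the start, because Asns is a textbook ATF4 target and Chac1, which degrades glutathione, was the regulator that dexamethasone lowered most without LPS. The regions are chr6:7693210-7693459 on the minus strand and chr2:119350992-119351241 on the plus strand of GRCm38.p6, with the core in capitals.
Asns upstream: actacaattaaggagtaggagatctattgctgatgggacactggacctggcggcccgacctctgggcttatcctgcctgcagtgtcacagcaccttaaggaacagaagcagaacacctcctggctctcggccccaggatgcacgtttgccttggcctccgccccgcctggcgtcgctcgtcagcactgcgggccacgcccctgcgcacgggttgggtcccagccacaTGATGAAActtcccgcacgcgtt
Chac1 upstream: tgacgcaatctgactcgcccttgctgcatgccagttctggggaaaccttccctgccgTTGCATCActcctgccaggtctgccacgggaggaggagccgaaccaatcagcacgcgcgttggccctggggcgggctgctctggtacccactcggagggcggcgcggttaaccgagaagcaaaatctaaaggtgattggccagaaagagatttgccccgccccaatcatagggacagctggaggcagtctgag

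The glucocorticoid receptor palindrome (AGAACA, any 3 bases, TGTTCT) occurred in 0 of the 40 windows and in 0.00913% of all windows. The E-box CACGTG, which reads the same on both strands, occurred in 3 of the 40 windows (7.5%) and in 7.15% of all windows. Of the 9 genes with the CARE core, 7 were called higher and 2 lower with LPS than in control in WT, where 37.4% of all tested genes were higher and 38.3% lower (adjusted p under 0.05 in edgeR). Of the 22 other tested genes with a window 12 were higher, 7 lower and 3 not called. With dexamethasone added to LPS, 3 of the 9 genes were higher and 6 lower, where 34.6% of all genes were higher and 34.5% lower, and of the 22 others 12 were higher and 10 lower. Pck2 and Got1 were the 2 genes with the core that were lower with LPS. Vldlr was among the 7 higher with LPS and among the 6 lower with dexamethasone added. It passed the filter on low counts in 15 libraries, with whole groups over the limit only among those given LPS. Nothing is drawn from its calls.

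**Figure D1:**
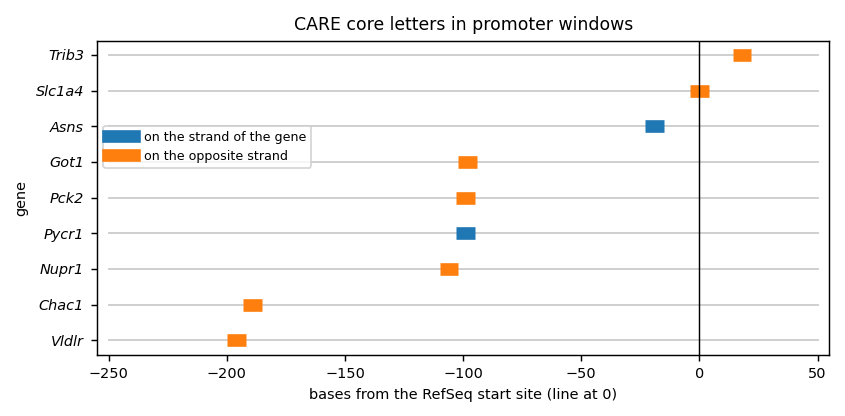
Position of the CARE core letters in the promoter windows of the 9 genes that hold them. The x axis gives bases from the RefSeq start site (line at 0), grey lines are the windows from 250 bases before to 50 after it, and colour gives the strand of the match; 7 of the 9 matches begin between 23 and 200 bases before the start.

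The libraries held 17559079 to 25049200 counted read pairs. Levels are given in CPM, the counts of a gene relative to the size of its library after TMM scaling, with group values as means ± SD of 4 libraries. Effects are given as a log2 fold change ± its SE by the quasi-likelihood test of edgeR, fitted on all 14427 genes that passed a filter on low counts. An effect was called where p, adjusted over those genes by the Benjamini-Hochberg method, was under 0.05. File headers place the WT libraries in sequencing lane 3, together with KO control 2 to 4 and KO dexamethasone 1 to 3, while KO dexamethasone 4 and all KO libraries given LPS were in lane 2, and KO control 1 was merged. Differences between KO and WT with LPS, and between KO with and without LPS, therefore cannot be told apart from the lane, apart from a lane term that rests on 1 library. Acod1 itself had WT group means of 9.89 ± 1.26 CPM in control, 0.868 ± 0.3099 CPM with dexamethasone, 6483 ± 249 CPM with LPS and 2738 ± 34.8 CPM with both agents. Its KO group means were 5.82 ± 0.747 CPM, 0.4904 ± 0.151 CPM, 4994 ± 133 CPM and 3933 ± 195 CPM in the same order. Gene-level reads of Acod1 therefore do not check the KO label, as the labels do not say which part was deleted. Macrophage markers (8 genes) summed to 17500 to 31400 CPM over the libraries, neutrophil markers to 11.1 to 98.9 CPM, nearly all from Mmp8, B cell markers to 0.17 to 107 CPM, led by Ighm, and dendritic cell markers to 0.181 to 17.3 CPM, led by Flt3. T and NK cell, mast cell, erythroid and fibroblast markers reached at most 3.23 CPM. In WT the macrophage sum had group means of 25800 CPM in untreated cells, 26400 after dexamethasone, 18500 after LPS and 30800 after both agents, and in KO 22400, 24200, 19400 and 22800 CPM. In the same order the neutrophil sum had means of 15.5, 96.2, 72.3 and 28.9 CPM in WT and 12.3, 86.5, 51.6 and 39.9 CPM in KO. The B cell sum had means of 103, 53.7, 0.524 and 3.41 CPM in WT, and the dendritic cell sum was highest with dexamethasone alone, at 1.15, 16.5, 0.609 and 0.42 CPM in WT. With LPS the macrophage, neutrophil and B cell sums thus moved in WT, and with dexamethasone under LPS the macrophage and neutrophil sums. With dexamethasone alone the neutrophil, B cell and dendritic cell sums moved. The part of these shifts in the results was not tested.

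Of the 36 genes, 35 passed the filter. Cbs, the first enzyme of the route from homocysteine to cysteine, had 0 to 9 counts in a library and was not tested. Cth, the second enzyme of that route, had 1 to 22 counts and passed through 4 libraries in 2 groups, and its group means ran from 0.0917 CPM in KO control to 0.687 CPM in WT with both agents. Vldlr, the lipoprotein receptor, passed through 15 libraries, with all 4 libraries of a group over the limit in 3 groups, each given LPS. Calls of Cth and Vldlr had to come from where they were high, so both are described by their levels, and member counts are also given over the other 33 genes, a choice made after the data were seen. Because reads were counted without strand, reads where genes overlap on opposite strands cannot be told apart. Psph shares 452 bases (10.4% of its exons) with Cct6a (84471 counts over all libraries, against 5510 for Psph), Shmt1 184 bases with Smcr8, Atf5 82 bases with Nup62 and Ddit3 68 bases with Mars, and their values are uncertain to that extent. Slc6a9 shares 27.8% of its exons with Ccdc24, which had 18 counts in all libraries together.

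Per kilobase of exon, Atf4 (ENSMUSG00000042406, chr15:80139385-80141742, plus strand in the coordinates of the deposited table) stood highest in WT control at 60.6 ± 2.97 CPM per kb. Its libraries overlapped with those of the glutamine transporter Slc38a2, at 58.5 ± 3.02 CPM per kb. Next came Slc3a2 at 51.1, Got1 at 29.3 and Atf5 at 16.1 CPM per kb, each above all libraries of the gene that followed. At the other end Slc6a9 (0.312), Pycr1 (0.101), Cth (0.0972) and Vldlr (0.0267 CPM per kb) had the lowest means of the tested genes, and the libraries of Pycr1 and Cth overlapped. So did those of Slc6a9 and of Slc1a4, the next gene up at 0.388 CPM per kb. Fewer expressing cells and less RNA per cell cannot be told apart in these bulk libraries.

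**Figure D2:**
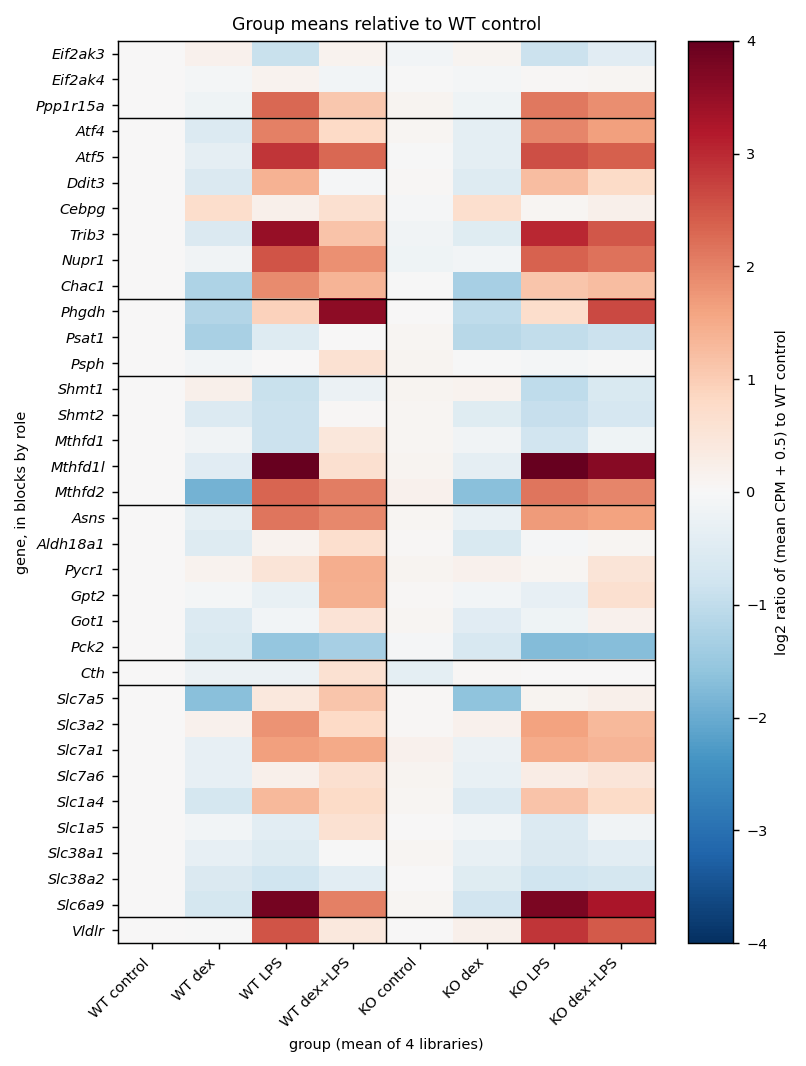
Group means of the 35 tested genes relative to WT control, as the log2 ratio of mean CPM + 0.5, in blocks by role. Columns are the 8 groups (4 libraries each), red is above and blue below WT control, with colours ending at 4 and -4; Mthfd1l, Slc6a9 and Trib3 are darkest with LPS, and Phgdh is darkest in WT with both agents.

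LPS alone changed the genes in both directions in WT: 20 of the 35 were higher than in control and 11 lower, where 37.4% of all tested genes were higher and 38.3% lower. The stress regulators were all higher (7 of 7, median log2 fold change 2.26), while the enzymes split, with Mthfd1l, Mthfd2, Asns and Phgdh higher and Pck2, Shmt1, Mthfd1, Shmt2 and Psat1 lower. The median over the 35 genes was 0.43 and over all genes -0.020. With dexamethasone alone the median went the other way, at -0.40 over the 35 genes. Of the 35, 3 were higher and 22 lower in WT, where 21.2% of all genes were higher and 28.2% lower. Some genes moved alike with either agent alone, among them Psat1, Pck2, Shmt2 and Slc38a2 downward and Slc3a2 upward. Added to LPS, dexamethasone was called for 35 of the 35 genes, 19 upward and 16 downward against LPS alone, where 34.6% of all genes were higher and 34.5% lower. Compared with untreated cells, WT cells given both agents had 27 of the 35 genes higher and 2 lower (34.5% and 37.8% of all genes), and compared with dexamethasone alone 30 higher and 2 lower (35.5% and 37.8%). Over the 33 genes without Cth and Vldlr the counts were 19 higher and 11 lower with LPS, 3 and 22 with dexamethasone, 18 and 15 with dexamethasone under LPS, 25 and 2 with both agents against control, and 28 and 2 against dexamethasone. These comparisons share libraries, so the counts do not support each other. Without library scaling the median of all genes shifted by -0.259 for LPS, by -0.161 for both agents against control and by -0.194 against dexamethasone. The share of called genes that were higher then went from 49.4% to 34.1%, from 47.7% to 36.9% and from 48.4% to 35.4%, and the members' counts became 16 higher and 13 lower, 25 and 6, and 28 and 5.

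Among the regulators, Atf4 encodes the factor at the centre of the response. It was at 146, 149.6, 133 and 143 CPM in WT control, 95.3, 95.6, 98.7 and 97.9 with dexamethasone, 576, 551, 639.7 and 533 with LPS and 258, 258, 226 and 248 with both agents. In KO it was at 152, 155, 144 and 151 CPM in control and 113, 105, 114 and 102 with dexamethasone. Atf4 in KO was at 566, 557, 571 and 525 with LPS and at 442, 463, 455 and 415 with both agents. Every LPS library was above every library of the same genotype given both agents, these above every control, and these above every dexamethasone library. With LPS in WT the log2 fold change was 2.01 ± 0.047, adjusted p = 1e-37, and with dexamethasone alone -0.56 ± 0.048, adjusted p = 2.93e-14. Dexamethasone under LPS gave -1.22 ± 0.045, adjusted p = 8.9e-29, and the difference between these effects was -0.65 ± 0.066, adjusted p = 2.65e-12.

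Atf5 encodes a related factor that is also controlled at translation. It was at 29.98, 34.3, 30.4 and 33.3 CPM in WT control, 26.5, 23.7, 25.8 and 23.2 with dexamethasone, 218, 228, 259 and 229 with LPS and 166, 165, 151 and 160.3 with both agents, and in KO at 30.04, 31.3, 36.8 and 29.6 CPM in control and 25.2, 22.8, 24.9 and 24.7 with dexamethasone. Atf5 in KO was at 189, 201, 189 and 191 with LPS and at 169.7, 170.5, 175 and 171 with both agents. Libraries of the treatments did not overlap within a genotype, with LPS highest and dexamethasone lowest. It rose with LPS in WT (2.87 ± 0.054, adjusted p = 9.16e-42) and fell when dexamethasone was added (-0.54 ± 0.046, adjusted p = 8.31e-15), and WT cells given both agents had a level 5.02-fold that of control.

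Trib3 (ENSMUSG00000032715, chr2:152179342-152185952, minus strand) encodes a pseudokinase that is induced by ATF4 and in turn restrains it. Its values were 3.61, 2.704, 5.03 and 5.39 CPM in WT control, 2.52, 3.12, 2.95 and 2.097 with dexamethasone, 48.8, 53.8, 56.8 and 46.5 with LPS and 9.199, 10.3, 8.64 and 11.3 with both agents. The KO values were 3.35, 3.53, 3.801 and 4.405 CPM in control and 2.72, 3.27, 2.49 and 2.94 with dexamethasone. Trib3 in KO was at 35.9, 38.5, 40.5 and 36.3 with LPS and at 25.2, 28.4, 25.6 and 24.3 with both agents. LPS libraries of either genotype lay above all others, control and dexamethasone libraries of WT overlapped, and KO with both agents lay well above WT with both agents. The rise with LPS in WT was 3.63 ± 0.11, adjusted p = 3.35e-33, and the fall with dexamethasone under LPS -2.38 ± 0.093, adjusted p = 9.26e-28, the largest fall among the 7 regulators.

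Nupr1 encodes a small stress-induced chromatin protein. It stood at 9.13, 10.97, 11.2 and 10.4 CPM in WT control, 8.87, 8.91, 10.6 and 9.15 with dexamethasone, 57.2, 63.3, 69.7 and 55.8 with LPS and 39.98, 37.4, 37.9 and 38.4 with both agents, and in the KO libraries at 8.46, 9.39, 10.1 and 8.62 CPM in control and 10.8, 7.98, 10.3 and 9.18 with dexamethasone. Nupr1 in KO was at 55.1, 55.5, 54.3 and 57.3 with LPS and at 47.99, 50.7, 48.8 and 47.4 with both agents. Control and dexamethasone libraries overlapped in both genotypes, and libraries given LPS with or without dexamethasone lay above them. LPS raised it (2.56 ± 0.072, adjusted p = 4.4e-34) and dexamethasone under LPS lowered it (-0.68 ± 0.061, adjusted p = 4.56e-14).

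Ddit3 encodes CHOP, a factor tied to cell death in prolonged stress. Its group means ran from 14 CPM in WT dexamethasone to 55.4 CPM in WT LPS, with a log2 fold change of 1.40 ± 0.072, adjusted p = 4.5e-23 for LPS and -1.43 ± 0.072, adjusted p = 2.95e-23 for dexamethasone under LPS. WT cells given both agents had 20.5 ± 1.02 CPM, which overlapped with control at 20.98 ± 1.71 CPM. Chac1, the glutathione-degrading enzyme, was scarce, from 0.204 CPM in KO dexamethasone to 6.06 CPM in WT LPS. It fell with dexamethasone alone (-2.29 ± 0.35, adjusted p = 2.16e-07) and rose with LPS (2.26 ± 0.20, adjusted p = 4.21e-14). Its counts summed to 98 in WT control and to 22 in WT dexamethasone, so these fold changes rest on few counts. Cebpg, the partner of ATF4, moved on its own path: dexamethasone raised it without LPS from 57.96 ± 1.28 CPM to 94.4 ± 2.11 CPM (0.70 ± 0.046, adjusted p = 1.82e-18), while with LPS it was 67.5 ± 5.29 CPM, a difference from control of 0.22 ± 0.048, adjusted p = 5.94e-05 that turned to -0.04 without library scaling.

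**Figure D3:**
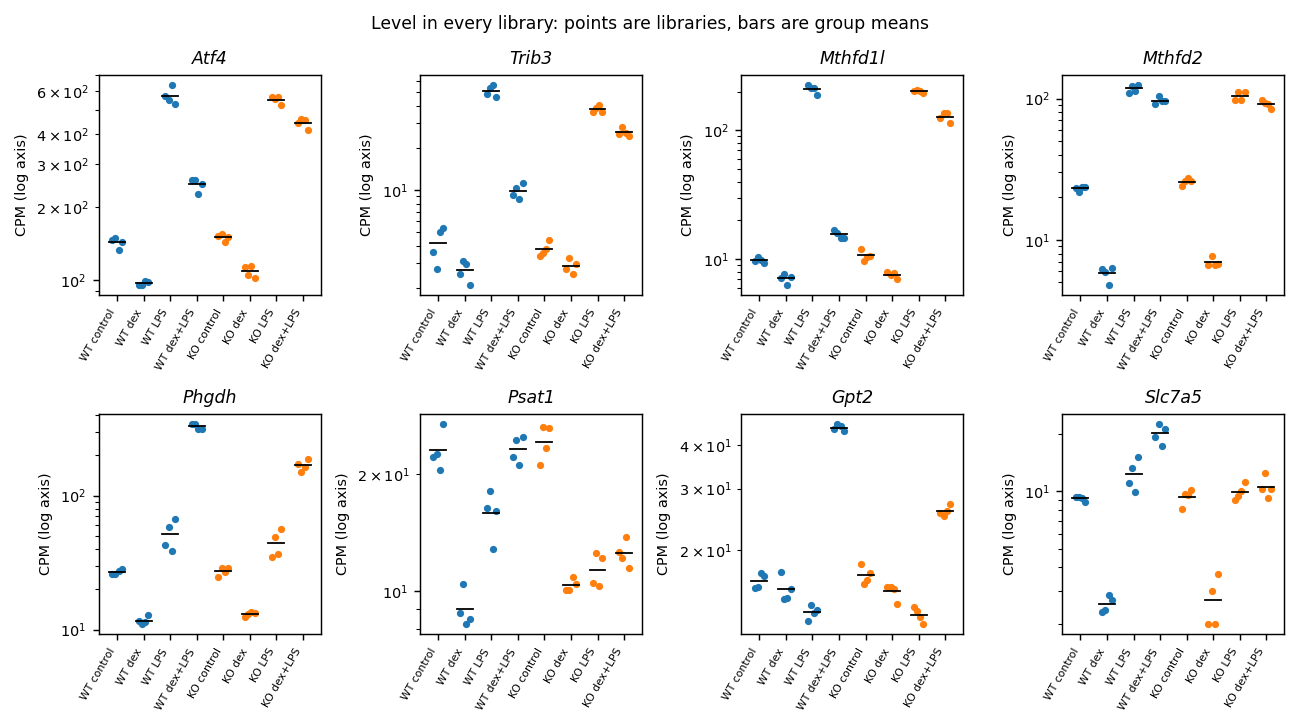
CPM of 8 genes in every library on log axes. Points are libraries, bars are group means, blue is WT and orange KO; in Atf4, Trib3 and Mthfd1l the WT libraries with both agents sit far below those with LPS while the KO libraries sit closer to them, and in Phgdh and Gpt2 the WT libraries with both agents are the highest of all.

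The kinases and the phosphatase subunit moved apart from one another. Eif2ak3, for PERK, was at 45.4, 47.5, 46.1 and 46.5 CPM in WT control, 52.02, 51.3, 52.1 and 55.9 with dexamethasone, 25.7, 24.2, 22.6 and 25.9 with LPS and 50.8, 52.4, 53.9 and 49.7 with both agents, and in KO at 41.2, 46.1, 41.3 and 43.97 CPM in control and 47.6, 50.5, 52.9 and 50.2 with dexamethasone. Eif2ak3 in KO was at 26.7, 27.1, 25.2 and 22.8 with LPS and at 33.1, 33.4, 33.4 and 35.98 with both agents. It was lowest in the libraries given LPS alone, which overlapped with no other WT group, and WT libraries with both agents overlapped with those given dexamethasone. LPS lowered it (-0.91 ± 0.054, adjusted p = 9.96e-21), and dexamethasone under LPS raised it by 1.07 ± 0.054, adjusted p = 2.1e-23. Eif2ak4, for GCN2, was nearly level, at 33.9, 32.9, 30.5 and 32.6 CPM in WT control, 32.7, 29.7, 29.4 and 30.6 with dexamethasone, 32.6, 40.6, 33.8 and 34.8 with LPS and 26.9, 30.7, 31.8 and 31.2 with both agents. The KO libraries had 31.3, 31.5, 31.03 and 34.4 CPM in control and 28.8, 30.999, 30.98 and 32.5 with dexamethasone. Eif2ak4 in KO was at 34.7, 33.8, 31.99 and 33.5 with LPS and at 33.6, 36.99, 34.1 and 33.3 with both agents. Control libraries overlapped with dexamethasone and with LPS libraries in both genotypes, and the one call in the WT comparisons was a fall from LPS to both agents (-0.23 ± 0.06, adjusted p = 7.18e-04).

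Ppp1r15a encodes GADD34, which brings a phosphatase to eIF2alpha and so ends the response. Its libraries were at 24.7, 24.4, 20.9 and 22.3 CPM in WT control, 18.7, 20.98, 21.5 and 19.8 with dexamethasone, 113, 103, 145 and 101 with LPS and 51.96, 54.9, 47.2 and 44.2 with both agents, and in KO at 26.4, 26.1, 24.5 and 22.7 CPM in control and 19.7, 20.8, 21.02 and 20.4 with dexamethasone. Ppp1r15a in KO was at 111, 95.9, 109 and 93.6 with LPS and at 83.3, 82.3, 93.1 and 82.4 with both agents. Control and dexamethasone libraries overlapped in WT, and the LPS libraries were the highest. LPS raised it by 2.32 ± 0.081, adjusted p = 2.97e-30, and dexamethasone under LPS lowered it (-1.22 ± 0.073, adjusted p = 2.81e-20).

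Serine synthesis starts with Phgdh (ENSMUSG00000053398, chr3:98220486-98247306, minus strand), the enzyme that draws 3-phosphoglycerate out of glycolysis. Its libraries were at 25.9, 25.8, 27.4 and 28.4 CPM in WT control, 11.5, 10.95, 11.4 and 12.8 with dexamethasone, 42.96, 57.97, 38.7 and 67.2 with LPS and 344, 342, 315 and 315 with both agents. In KO they were at 24.5, 28.8, 26.7 and 28.8 CPM in control and 12.5, 12.98, 13.4 and 13.2 with dexamethasone. Phgdh in KO was at 34.7, 49.3, 36.5 and 56.3 with LPS and at 173, 151, 163 and 189 with both agents. WT cells with both agents were above every other library, KO cells with both agents came next, and dexamethasone libraries were the lowest, without overlap between treatments in a genotype. Dexamethasone alone lowered it (-1.20 ± 0.13, adjusted p = 7.87e-11), LPS alone raised it (0.94 ± 0.11, adjusted p = 1.32e-10), and dexamethasone under LPS raised it further (2.67 ± 0.095, adjusted p = 1.51e-29). The difference between the dexamethasone effects with and without LPS was 3.88 ± 0.16, adjusted p = 3.99e-26, the largest of the 35 genes in either direction.

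Psat1, the transaminase of the second step, was at 22.1, 22.5, 20.4 and 26.9 CPM in WT control, 8.77, 10.4, 8.21 and 8.48 with dexamethasone, 16.3, 18.1, 12.8 and 16.1 with LPS and 22.1, 24.5, 21.1 and 24.8 with both agents, and in KO at 21.03, 26.4, 23.3 and 26.2 CPM in control and 10.04, 10.04, 10.9 and 10.4 with dexamethasone. Psat1 in KO was at 10.5, 12.5, 10.3 and 12.2 with LPS and at 12.6, 12.2, 13.8 and 11.5 with both agents. Control libraries and libraries with both agents overlapped in WT, whereas in KO those with both agents overlapped with LPS alone. It fell with dexamethasone (-1.35 ± 0.095, adjusted p = 2.86e-17) and with LPS (-0.54 ± 0.09, adjusted p = 5.62e-07), and was higher with both agents than with LPS alone in WT (0.55 ± 0.089, adjusted p = 4.24e-07). Psph, the phosphatase of the last step, was at 7.72, 7.06, 7.29 and 9.61 CPM in WT control, 8.42, 6.64, 7.16 and 7.14 with dexamethasone, 7.299, 7.95, 7.91 and 8.702 with LPS and 11.7, 13.1, 13.2 and 11.7 with both agents. The KO libraries were at 8.56, 7.89, 9.46 and 8.402 CPM in control and 7.12, 7.98, 8.199 and 7.78 with dexamethasone. Psph in KO was at 8.23, 7.202, 7.66 and 7.17 with LPS and at 8.16, 7.34, 7.29 and 8.64 with both agents. Only the WT libraries with both agents stood apart from the other groups, at 0.65 ± 0.095, adjusted p = 5.31e-08 against LPS alone.

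In the folate cycle of mitochondria, Mthfd2 makes and Mthfd1l uses 10-formyl-tetrahydrofolate. Mthfd1l (ENSMUSG00000040675, chr10:3923118-4117081, plus strand) was at 9.68, 10.5, 9.86 and 9.399 CPM in WT control, 7.16, 7.71, 6.31 and 7.23 with dexamethasone, 227, 213, 213 and 187 with LPS and 16.9, 16.1, 14.6 and 14.7 with both agents. In KO it was at 12.1, 9.68, 10.4 and 10.6 CPM in control and 7.99, 7.47, 7.79 and 7.05 with dexamethasone. Mthfd1l in KO was at 201, 206, 202 and 195 with LPS and at 125, 135, 136 and 115 with both agents. No groups overlapped within a genotype, and KO libraries with both agents had a level 8.2-fold that of the WT ones in the fit. It had the largest rise with LPS of the 35 genes (4.41 ± 0.064, adjusted p = 2.03e-46) and the largest fall with dexamethasone under LPS (-3.75 ± 0.06, adjusted p = 4.4e-44), against -0.47 ± 0.093, adjusted p = 3.62e-05 for dexamethasone alone.

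Mthfd2 was at 23.4, 21.9, 23.6 and 23.6 CPM in WT control, 6.25, 5.92, 4.804 and 6.38 with dexamethasone, 110.01, 123, 113 and 126 with LPS and 91.5, 104, 95.7 and 96.4 with both agents, and in KO at 24.1, 25.999, 27.5 and 25.9 CPM in control and 6.66, 7.66, 6.61 and 6.78 with dexamethasone. Mthfd2 in KO was at 98.1, 111, 98.1 and 111 with LPS and at 98.1, 92.2, 91.7 and 84.8 with both agents. Dexamethasone libraries were the lowest and LPS libraries the highest in WT, and those with both agents lay near LPS. Dexamethasone lowered it strongly without LPS (-1.98 ± 0.083, adjusted p = 5.23e-26) and little under LPS (-0.28 ± 0.05, adjusted p = 2.19e-06), a difference of 1.70 ± 0.098, adjusted p = 1.07e-20. For Mthfd1l, the next enzyme of the cycle, that difference had the opposite sign (-3.29 ± 0.12, adjusted p = 3.75e-29).

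Mthfd1, the cytosolic enzyme of 3 activities, was at 28.3, 28.3, 28.5 and 28.3 CPM in WT control, 25.001, 27.5, 25.8 and 24.9 with dexamethasone, 14.7, 16.6, 13.8 and 16.03 with LPS and 37.6, 41.1, 39.6 and 39.1 with both agents. The KO values were 30.1, 31.3, 29.6 and 28.6 CPM in control and 24.6, 25.3, 28.1 and 25.7 with dexamethasone. Mthfd1 in KO was at 17.7, 15.9, 13.3 and 19.2 with LPS and at 25.3, 24.5, 23.96 and 26.4 with both agents. It was lowest with LPS and highest in WT with both agents, with no overlap of WT groups between LPS and the others. LPS lowered it (-0.89 ± 0.071, adjusted p = 5.58e-16) and dexamethasone under LPS raised it (1.36 ± 0.069, adjusted p = 2.57e-23). The serine hydroxymethyltransferases, which split serine into glycine and a one-carbon unit, were both lower with LPS: Shmt2 of mitochondria ranged from 22.3 CPM in KO LPS to 45.2 CPM in KO control (-0.87 ± 0.062, adjusted p = 1.28e-17 with LPS in WT), and cytosolic Shmt1 from 2.43 CPM in KO LPS to 6.26 CPM in WT dexamethasone (-1.01 ± 0.17, adjusted p = 4.57e-07).

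Asns, which makes asparagine, was at 15.04, 15.5, 13.96 and 16.1 CPM in WT control, 9.68, 10.8, 13.7 and 12.001 with dexamethasone, 66.3, 70.4, 59.7 and 80.8 with LPS and 58.4, 61.6, 54.9 and 58.01 with both agents, and in KO at 16.1, 16.9, 15.1 and 16.5 CPM in control and 14.2, 12.2, 10.9 and 11.8 with dexamethasone. Asns in KO was at 46.97, 52.2, 48.04 and 57.04 with LPS and at 51.1, 51.1, 43.1 and 44.5 with both agents. LPS libraries and libraries with both agents overlapped in both genotypes and lay above the rest. LPS raised it (2.19 ± 0.082, adjusted p = 5.57e-29), and dexamethasone alone lowered it (-0.40 ± 0.099, adjusted p = 7.06e-04). Under LPS the fall with dexamethasone was small (-0.25 ± 0.07, adjusted p = 0.00154).

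Gpt2 (ENSMUSG00000031700, chr8:86219205-86254189, plus strand), the mitochondrial transaminase that links alanine and pyruvate, was at 15.6, 15.7, 17.2 and 16.9 CPM in WT control, 17.3, 14.5, 14.6 and 15.5 with dexamethasone, 12.6, 13.9, 13.2 and 13.5 with LPS and 44.3, 45.9, 45.4 and 43.7 with both agents. In KO it was at 18.2, 15.98, 16.4 and 17.2 CPM in control and 15.7, 15.7, 15.4 and 14.1 with dexamethasone. Gpt2 in KO was at 13.7, 13.4, 12.8 and 12.3 with LPS and at 25.5, 25.004, 25.8 and 27.1 with both agents. Control and dexamethasone libraries overlapped in WT, LPS libraries lay below them, and those with both agents lay above every other group of the genotype. LPS lowered it (-0.30 ± 0.068, adjusted p = 1.11e-04), and dexamethasone raised it under LPS (1.75 ± 0.062, adjusted p = 1.21e-29), with a difference from its effect without LPS of 1.84 ± 0.091, adjusted p = 2.69e-23.

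Pck2, which makes phosphoenolpyruvate in mitochondria, was at 75.2, 78.98, 71.6 and 77.9 CPM in WT control, 50.3, 50.2, 52.3 and 45.95 with dexamethasone, 22.5, 28.1, 25.4 and 27.3 with LPS and 30.4, 31.3, 28.2 and 28.9 with both agents, and in KO at 68.2, 76.6, 75.6 and 74.6 CPM in control and 51.7, 49.5, 45.9 and 45.2 with dexamethasone. Pck2 in KO was at 20.6, 23.3, 21.2 and 24.3 with LPS and at 26.01, 22.7, 20.1 and 22.7 with both agents. It was highest in control and fell with LPS (-1.56 ± 0.063, adjusted p = 1.26e-27) and with dexamethasone (-0.61 ± 0.057, adjusted p = 4.79e-13) in WT, whereas Asns, which also carries the CARE core, rose with LPS. Among the other enzymes, Got1, the cytosolic aspartate transaminase, ran from 50.8 CPM in WT dexamethasone to 108 CPM in WT with both agents, Aldh18a1, the first enzyme of proline synthesis, from 11.8 CPM in KO dexamethasone to 29.6 CPM in WT with both agents, and Pycr1, its last enzyme, from 0.395 CPM in WT control to 1.98 CPM in WT with both agents. All 3 were higher with both agents than with LPS alone in WT. The log2 fold change was 0.66 ± 0.041, adjusted p = 8.76e-20 for Got1 and 0.55 ± 0.095, adjusted p = 1.33e-06 for Aldh18a1. For Pycr1 it was 1.34 ± 0.30, adjusted p = 1.07e-04, at 4 to 58 counts in a library. Only 20 of the 32 libraries were over the filter limit for Pycr1, so its fold change rests on few counts.

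Among the transporters, Slc3a2 encodes the heavy chain (4F2hc) that carries several light chains to the membrane, among them Slc7a5. Slc3a2 was at 185, 177, 178 and 182 CPM in WT control, 201, 201, 203 and 204 with dexamethasone, 611, 612, 703 and 599 with LPS and 313, 326, 303 and 314 with both agents, and in KO at 191, 180.2, 184 and 185 CPM in control and 206, 200.3, 209 and 204 with dexamethasone. Slc3a2 in KO was at 558, 555, 561 and 542 with LPS and at 446, 454, 445 and 439 with both agents. LPS libraries were the highest, followed by those with both agents, with no overlap. It rose with LPS (1.81 ± 0.036, adjusted p = 8.42e-41) and fell with dexamethasone under LPS (-1.01 ± 0.034, adjusted p = 3.56e-30), and dexamethasone alone raised it slightly (0.16 ± 0.036, adjusted p = 1.2e-04).

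Slc7a5 (ENSMUSG00000040010, chr8:122607889-122634433, minus strand), the LAT1 light chain that imports leucine and other large neutral amino acids, was at 9.38, 9.37, 9.24 and 8.76 CPM in WT control, 2.32, 2.36, 2.85 and 2.68 with dexamethasone, 11.1, 13.3, 9.88 and 15.1 with LPS and 19.5, 22.8, 17.4 and 21.5 with both agents. In KO it was at 8.11, 9.73, 9.63 and 10.1 CPM in control and 1.998, 2.99, 1.99 and 3.66 with dexamethasone. Slc7a5 in KO was at 9.06, 9.47, 10.1 and 11.2 with LPS and at 10.3, 12.6, 9.27 and 10.4 with both agents. Dexamethasone libraries were the lowest in both genotypes, and WT libraries with both agents the highest, while KO libraries with both agents overlapped with LPS alone. Dexamethasone alone lowered it (-1.85 ± 0.15, adjusted p = 2.66e-15) and dexamethasone under LPS raised it in WT (0.72 ± 0.11, adjusted p = 6.96e-08), opposite in direction to its heavy chain in each case.

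Slc7a1, an importer of arginine and lysine, was at 26.6, 23.1, 24.1 and 26.2 CPM in WT control, 20.97, 20.5, 18.9 and 19.01 with dexamethasone, 79.1, 87.7, 67.8 and 83.4 with LPS and 79.1, 74.5, 65.4 and 70.3 with both agents, and in KO at 27.3, 28.3, 29.1 and 29.3 CPM in control and 20.7, 22.5, 19.1 and 22.02 with dexamethasone. Slc7a1 in KO was at 73.2, 67.7, 66.5 and 73.4 with LPS and at 63.5, 70.003, 63.2 and 62.1 with both agents. LPS libraries and libraries with both agents overlapped in both genotypes and lay above control, with a rise of 1.67 ± 0.065, adjusted p = 3.15e-28 for LPS in WT. Slc1a5, the glutamine importer ASCT2, was at 47.9, 45.6, 47.4 and 51.3 CPM in WT control, 44.3, 46.6, 44.6 and 41.5 with dexamethasone, 32.6, 38.1, 35.01 and 36.8 with LPS and 72.4, 73.3, 72.5 and 76.4 with both agents. The KO libraries were at 49.4, 48.5, 46.6 and 51.3 CPM in control and 46.7, 44.9, 45.7 and 42.1 with dexamethasone. Slc1a5 in KO was at 34.99, 33.7, 30.6 and 32.8 with LPS and at 42.5, 43.2, 43.4 and 44.8 with both agents. Its WT libraries with both agents lay above all others, and LPS libraries were the lowest in each genotype. LPS lowered it (-0.43 ± 0.051, adjusted p = 1.35e-10) and dexamethasone under LPS raised it (1.05 ± 0.049, adjusted p = 1.6e-24).

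Slc6a9 (ENSMUSG00000028542, chr4:117691703-117732395, plus strand), the glycine transporter GLYT1, was at 1.003, 2.504, 1.797 and 1.12 CPM in WT control, 0.605, 0.959, 0.901 and 0.758 with dexamethasone, 28.6, 29.8, 29.9 and 28.9 with LPS and 8.34, 9.64, 6.86 and 7.58 with both agents. In KO it was at 2.504, 1.55, 1.45 and 1.44 CPM in control and 1.08, 0.794, 0.679 and 0.362 with dexamethasone. Slc6a9 in KO was at 25.2, 28.5, 25.7 and 32.2 with LPS and at 19.6, 20.98, 18.1 and 20.98 with both agents. It was under 3 CPM in every library without LPS and the groups given LPS lay above, in WT by 4.18 ± 0.15, adjusted p = 4.39e-30, and dexamethasone under LPS lowered it (-1.85 ± 0.11, adjusted p = 2.55e-20). The remaining transporters are given by the range of their group means. Slc38a2, the SNAT2 carrier of small neutral amino acids, ran from 295 CPM in WT LPS to 521 CPM in KO control, Slc38a1 from 101 CPM in KO LPS to 159 CPM in KO control, and Slc7a6 from 18.8 CPM in WT dexamethasone to 37.6 CPM in WT with both agents. Slc1a4 ran from 0.734 CPM in WT dexamethasone to 4.44 CPM in WT LPS. LPS lowered Slc38a2 (-0.81 ± 0.04, adjusted p = 6.69e-24) and Slc38a1 (-0.53 ± 0.043, adjusted p = 9.07e-16) and raised Slc1a4 (1.54 ± 0.23, adjusted p = 5.67e-08) in WT.

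Vldlr (ENSMUSG00000024924, chr19:27193884-27231631, plus strand), a lipoprotein receptor that ATF4 is known to raise, was at 0.251, 0.2504, 0.359 and 0.214 CPM in WT control, 0.151, 0.2398, 0.3503 and 0.312 with dexamethasone, 3.21, 4.32, 4.16 and 3.8 with LPS and 0.657, 0.461, 0.162 and 0.831 with both agents. In KO it was at 0.1502, 0.387, 0.413 and 0.185 CPM in control and 0.512, 0.327, 0.317 and 0.362 with dexamethasone. Vldlr in KO was at 6.197, 4.43, 5.297 and 4.28 with LPS and at 3.39, 3.67, 4.06 and 3.603 with both agents. It was under 1 CPM in all libraries without LPS, and among those with both agents the KO libraries lay far above the WT libraries. The libraries given LPS alone lay above the controls in both genotypes.

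Dexamethasone was also compared with itself, with and without LPS. Serine synthesis, Gpt2 and Slc7a5 responded upward under LPS, and Mthfd1l, Trib3 and Slc3a2 downward, relative to dexamethasone alone. The difference of its effects was called for 29 of the 35 genes in WT, 19 upward and 10 downward, where 32% of all genes were called upward and 28.4% downward (18 and 9 of 33 without Cth and Vldlr). Of the 22 genes lower with dexamethasone alone, 11 were higher and 11 lower when it was added to LPS, and of the 4070 genes of the whole table that were lower, 37.7% were higher and 42.8% lower under LPS. The serine synthesis enzymes were all more positive under LPS (3 of 3, median difference 1.90), as were 4 of 6 of the asparagine, proline, alanine, aspartate and phosphoenolpyruvate enzymes. Of the 7 regulators 5 were more negative and 1, Chac1, more positive under LPS (1.71 ± 0.40, adjusted p = 2.07e-04, with 22 counts in the WT dexamethasone group). Slc7a5 also turned from lower to higher, with a difference of 2.57 ± 0.18, adjusted p = 2.91e-17, and Mthfd1l had the largest difference downward (-3.29 ± 0.12, adjusted p = 3.75e-29).

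**Figure D4:**
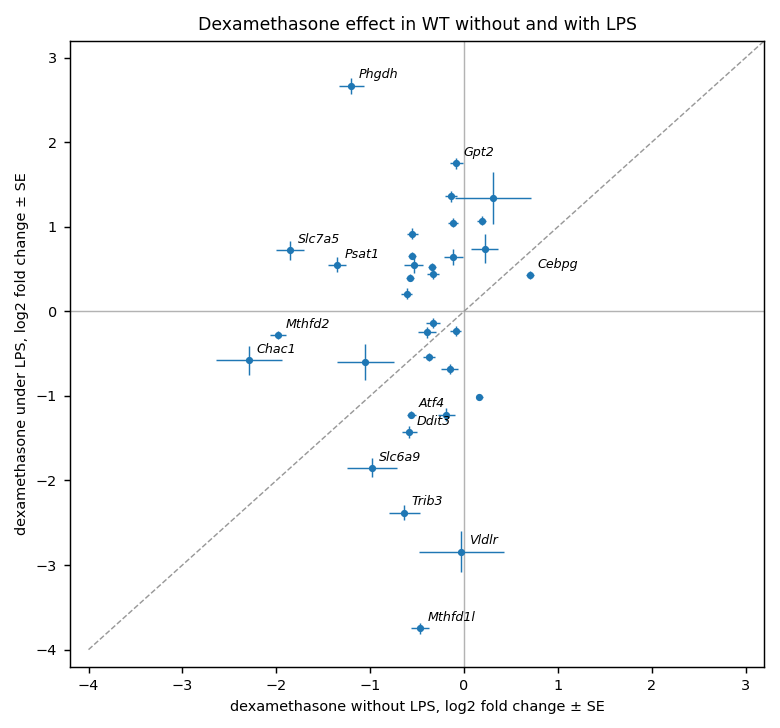
Log2 fold change of dexamethasone without LPS (x axis, WT dexamethasone against control) and under LPS (y axis, WT both agents against LPS) for the 35 tested genes, Cth left out. SE is drawn as bars and the line of equal effects is dashed. Phgdh, Slc7a5 and Psat1 lie in the upper left, lower without LPS and higher under it, and Mthfd1l, Trib3 and Atf4 lie far below the dashed line.

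In KO macrophages the same treatments gave 19 of 35 genes higher and 11 lower with LPS (36.8% and 39.3% of all genes), 4 higher and 25 lower with dexamethasone alone (20.9% and 27.6%), and 12 higher and 11 lower with dexamethasone added to LPS (20.8% and 17.3%). Against dexamethasone alone, both agents gave 23 higher and 7 lower (38.5% and 37.4%), and against control 20 higher and 9 lower (37.5% and 36.5%). Without library scaling the share of called genes that were higher went from 48.4% to 34.1% with LPS, from 50.8% to 35.9% with both agents against dexamethasone and from 50.7% to 36.4% against control, and the members' counts became 16 higher and 15 lower, 21 and 10, and 19 and 11. The KO comparisons of LPS with control, and of both agents with control or dexamethasone, run across lanes 2 and 3. With a lane term 15 members were higher and 11 lower with LPS, where 3948 of all 14667 genes were higher and 4432 lower. It gave 17 and 7 members with both agents against control (3945 and 4032 genes), and 21 and 6 against dexamethasone (4799 and 4521 genes). The comparison of both agents with LPS lies within lane 2. Atf4 rose with LPS in KO by 1.88 ± 0.046, adjusted p = 1.03e-36, and Mthfd1l by 4.23 ± 0.062, adjusted p = 2.8e-46. Without Cth and Vldlr the KO counts were 17 higher and 11 lower with LPS, 3 and 25 with dexamethasone, 12 and 10 with dexamethasone under LPS, 22 and 7 with both agents against dexamethasone, and 18 and 9 against control. The difference of dexamethasone effects with and without LPS in KO was called upward for 20 genes and downward for 2 (25.7% and 16.2% of all genes).

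Between KO and WT no member was called without LPS. In control and with dexamethasone alone, edgeR called 0 of the 35 genes, where it called 0.541% and 0.901% of all genes. At an unadjusted p under 0.05 there were 6 and 4 members, where 1235 and 1495 of all 14427 genes passed. DESeq2 also called 0 members in each. With LPS, 9 genes were lower in KO and 0 higher, where 5.51% of all genes were lower and 4.66% higher. Without library scaling 6 members were lower, and the share of called genes that were higher went from 45.8% to 65.0%. Psat1 (-0.48 ± 0.099, adjusted p = 5.11e-04), Asns (-0.44 ± 0.071, adjusted p = 1.17e-05), Trib3 (-0.45 ± 0.08, adjusted p = 7.94e-05) and Atf5 (-0.28 ± 0.046, adjusted p = 1.6e-05) were among them. With the lane term 0 of these 9 calls were left. Leaving out KO LPS library 3 gave 6 calls in place of 9. The effect of dexamethasone alone differed between genotypes for 0 members and 0 of all genes in edgeR and in DESeq2. At an unadjusted p under 0.05 in edgeR it differed for 1 member, Cth, and for 617 of all 14427 genes. Nothing is drawn from Cth. The effect of LPS itself differed between genotypes for 6 genes, all downward in KO relative to WT (1.64% of all genes, where 2.07% were more positive, and 66.1% rather than 55.8% of the calls were upward without library scaling), such as Asns (-0.53 ± 0.12, adjusted p = 0.00299), and with the lane term for 0. Of the 6, Asns, Atf5, Mthfd2, Slc3a2 and Slc7a1 rose less with LPS in KO, and Psat1 fell more.

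With both agents the genotypes differed most: 10 of the 35 genes were higher and 21 lower in KO than in WT, where 28.5% of all genes were higher and 27.9% lower. Mthfd1l was higher in KO by 3.04 ± 0.06, adjusted p = 1.91e-39, Trib3 by 1.39 ± 0.097, adjusted p = 2.13e-17 and Slc6a9 by 1.29 ± 0.11, adjusted p = 5.09e-14, while Phgdh (-0.96 ± 0.085, adjusted p = 6.96e-14) and Slc7a5 (-0.93 ± 0.11, adjusted p = 2.43e-10) were lower in KO. With the lane term 9 members were higher and 14 lower, where 2448 of all 14667 genes were higher and 2386 lower. Without that term, and without Cth and Vldlr, 9 of 33 were higher and 20 lower.

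The effect of dexamethasone under LPS was compared between genotypes as a difference of differences, each within 1 lane, so that a lane effect that adds to all libraries of a lane drops out. It differed for 28 of the 35 genes, 12 upward and 16 downward in KO relative to WT, where 23.9% of all genes differed upward and 21.5% downward. Without Cth and Vldlr 26 of 33 differed, 11 upward and 15 downward. Every regulator differed, 6 upward in KO relative to WT and 1, Cebpg, downward. Atf4, Atf5, Ddit3, Trib3 and Nupr1 fell less in KO, while Chac1, which fell in WT (-0.58 ± 0.17, adjusted p = 0.0025), had group means of 3.34 CPM with LPS and 3.66 CPM with both agents in KO. Chac1 libraries with LPS and with both agents overlapped in both genotypes. For Atf4 the fall was -1.22 ± 0.045 in WT and -0.32 ± 0.044 in KO, a difference of 0.89 ± 0.062, adjusted p = 3.77e-17. For Trib3 the difference was 1.83 ± 0.13, adjusted p = 2.18e-17, for Ddit3 0.96 ± 0.10, adjusted p = 1.54e-11 and for Ppp1r15a 0.96 ± 0.10, adjusted p = 3.21e-11.

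Among enzymes and transporters, Mthfd1l had the largest difference: its fall was -3.75 ± 0.06 in WT and -0.65 ± 0.048 in KO, a difference of 3.10 ± 0.077, adjusted p = 3.81e-35. Slc6a9 (1.37 ± 0.15, adjusted p = 8e-11) differed in the same direction. The rise of Phgdh was 2.67 ± 0.095 in WT and 1.94 ± 0.097 in KO, a difference of -0.73 ± 0.14, adjusted p = 1.07e-05, and that of Gpt2 1.75 ± 0.062 and 0.98 ± 0.065 (-0.77 ± 0.091, adjusted p = 5.17e-10). All 3 serine synthesis enzymes differed downward, and Psat1 and Psph were not called in KO. Asns, Mthfd2, Slc7a1 and Slc1a4 were among the 7 genes with no called difference.

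**Figure D5:**
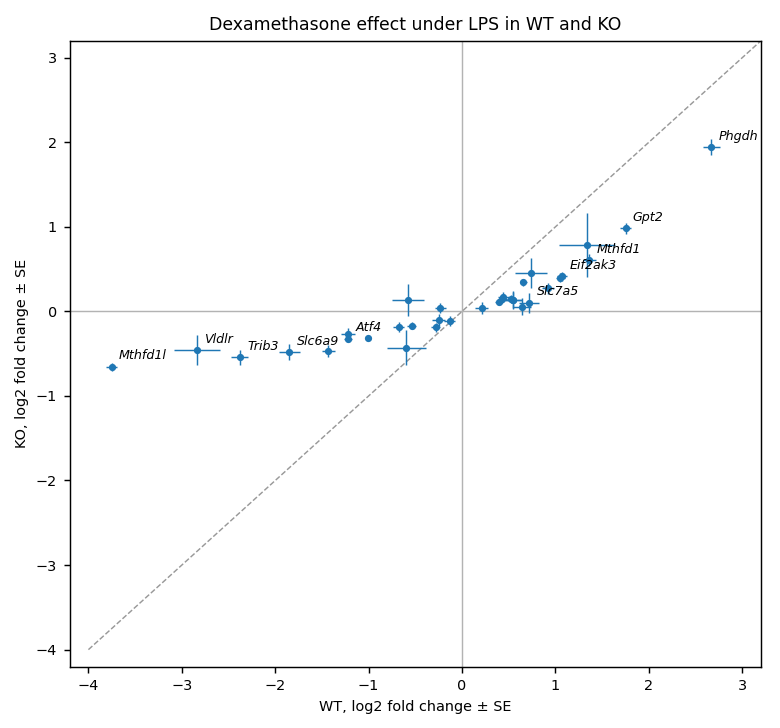
Log2 fold change of dexamethasone under LPS in WT (x axis) and KO (y axis) for the 35 tested genes, Cth left out. SE is drawn as bars and the line of equal effects is dashed. The points form a flatter band than the dashed line: Mthfd1l is at -3.75 in WT and -0.65 in KO, and Phgdh at 2.67 and 1.94.

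On the linear scale the change of group mean CPM in KO was 34% of that in WT in the median of the 13 members, Cth and Vldlr left out, that were called in WT with a log2 fold change of at least 1 in size, with a range from 25.6% (Ppp1r15a) to 45.1% (Phgdh). It was 33.9% for Atf4, 28.6% for Trib3, 37.6% for Mthfd1l and 40.6% for Gpt2. Over the 3204 genes of the whole table called with a change of that size, with none left out, the median was 34.1%, with quartiles of 26.3% and 41.2%. These genes were chosen on their change in WT and not on that in KO, and the members' median lay within the quartiles of all genes.

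Other genes of the pathway were read from lists, whose counts stand beside the shares over all tested genes: 37.4% higher and 38.3% lower with LPS in WT (median log2 fold change -0.020), 21.2% and 28.2% with dexamethasone alone (-0.018), 34.6% and 34.5% with dexamethasone under LPS (0.0071), 34.5% and 37.8% with both agents against control (-0.041), and 23.9% upward and 21.5% downward for the genotype difference under LPS. Of 20 cytosolic aminoacyl-tRNA synthetases, which charge tRNA, LPS raised 16 and lowered 3 in WT, with a median of 0.32, led by Aars (1.08 ± 0.036, adjusted p = 8.28e-31) and Cars (1.39 ± 0.048, adjusted p = 1.5e-30). Dexamethasone alone raised 0 and lowered 12, and with LPS it raised 14 and lowered 4 (median 0.24). Vars (2.11 ± 0.056, adjusted p = 6.75e-35) and Tars (1.32 ± 0.041, adjusted p = 3.81e-32) had the smallest adjusted p there. Compared with control, WT cells given both agents had 19 of the 20 higher and 1 lower, with a median of 0.61.

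Of 17 tested further stress-response and ATF4 target genes, 14 were higher and 1 lower with LPS in WT, with a median of 0.79. They included the cystine transporter Slc7a11 (7.10 ± 0.084, adjusted p = 4.07e-50), the factor Cebpb (2.71 ± 0.059, adjusted p = 4.61e-39) and the translation inhibitor Eif4ebp1 (2.37 ± 0.056, adjusted p = 3.06e-37). Dexamethasone alone raised 7 and lowered 5, and the mTOR inhibitor Ddit4, which is also a known glucocorticoid target, led with 6.64 ± 0.10, adjusted p = 1.64e-43. Under LPS it raised 5 and lowered 9 (median -0.15), with Atf3 (-3.71 ± 0.063, adjusted p = 4.74e-43) and Eif4ebp1 (-2.14 ± 0.055, adjusted p = 2.82e-35) lower. The genotypes differed in that effect for 8 genes upward and 3 downward in KO relative to WT, Atf3 by 3.07 ± 0.081, adjusted p = 5.38e-34 and Eif4ebp1 by 1.72 ± 0.075, adjusted p = 3.99e-25.

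Of 16 other one-carbon and folate enzymes, LPS raised 5 (31.2%) and lowered 8 (50%), with a median of -0.34 and with Mtr, methionine synthase, at -1.56 ± 0.056, adjusted p = 8.86e-30. Aldh1l2, a mitochondrial enzyme that oxidises 10-formyl-tetrahydrofolate, had all 4 libraries over the filter limit only in groups given LPS alone or, in KO, both agents. So had Stc2 of the list before it. Aldh1l2 is counted but given by its WT group means of 0.346 CPM in control and 13.3 CPM with LPS. Gldc, counted too, passed the filter in 7 libraries, and KO LPS was its only group with all 4 over the limit. Its group means ran from 0.0578 CPM in WT dexamethasone to 0.675 CPM in KO LPS. The list counts include these genes, and nothing is drawn from their calls. Dexamethasone under LPS raised 9 and lowered 5 of the 16, with a median of 0.30 and with Ahcy, which clears the product of methylation reactions, at 2.82 ± 0.077, adjusted p = 2.48e-34. Of 14 tested proline, glutamine and branched-chain enzymes, LPS raised 4 and lowered 7 (median -0.14), led by Ass1 of arginine synthesis (4.86 ± 0.054, adjusted p = 2.89e-51), and dexamethasone raised glutamine synthetase Glul without LPS (1.84 ± 0.037, adjusted p = 2.43e-39) and under it (2.38 ± 0.038, adjusted p = 5.55e-44). Under LPS 8 of the 14 were higher and 3 lower with dexamethasone, with a median of 0.34.

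Of 14 tested other amino acid transporters, LPS raised 9 and lowered 4 (median 0.39), with the arginine transporter Slc7a2 at 9.90 ± 0.075, adjusted p = 3.06e-58 and Slc7a11, counted also above. Dexamethasone under LPS raised 4 and lowered 8 (median -0.12), among them Slc7a8 (-2.09 ± 0.039, adjusted p = 3.39e-41) and Slc7a2 (-1.45 ± 0.044, adjusted p = 1.87e-32). Of 12 genes of the other arms of the unfolded protein response, LPS raised 7 and lowered 5 (median 0.51) and dexamethasone under LPS raised 10 and lowered 1 (median 0.35), with the chaperone Hspa5 at 0.67 ± 0.027, adjusted p = 5.92e-27 and the degradation factor Herpud1 at 2.41 ± 0.06, adjusted p = 5.9e-36. The effect under LPS was less positive in KO than in WT for 9 of these 12 and more positive for 0.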

How the data were processed

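Messenger RNA was sequenced in 32 libraries of mouse bone marrow-derived macrophages. The deposited values are raw counts, read pairs assigned to each gene, beside 1 column of summed exon length in bases, used here for levels per kilobase. The authors ran featureCounts 2.0.0, per the file headers, on exons of GENCODE vM32 grouped by gene, with paired reads and unstranded, and no option for reads that map to several places was recorded. The aligner was STAR per the submitters' processing notes, its version being not given in the sources used here. These notes name GRCm38 and mm10 although vM32 was made for a later build, so gene positions are those of the deposited table and promoter windows are RefSeq's on GRCm38.p6. Symbols were matched to 52029 of 56953 identifiers, and the others held 0.846% of the counts. Of rows sharing a symbol the one with most counts was used.

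Genes were kept by filterByExpr of edgeR 4.0.16 in R 4.3.3 (14427), scaled by TMM, and all 8 groups were fitted together by the quasi-likelihood model (24 residual degrees of freedom, biological coefficient of variation 4.36%). The 19 contrasts were tested with the two-sided F test, and SE was derived from F. Library totals ran from 17559079 to 25049200. The counts of each of the 48 pairs of replicate libraries differed beyond sampling noise (chi-square per degree of freedom 2.01 to 16.7). The fit was tested on simulated data. The reported fit had no replicate block.

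The 36 members, the role groups, the other lists and the rule for named genes were chosen with earlier results of these data known. The rule gives every library's value for Atf4 and, in each role, for up to 3 genes (5 transporters) with the widest range of group means on log2(CPM + 1) among those reaching 5 CPM in a group. Other members are given by lowest and highest group mean, and of the other lists up to 3 called genes with the smallest adjusted p per comparison. Not every gene the rule allows is named. Alternatives were RLE scaling, no scaling, no filter, DESeq2 1.42.0, an adjusted p under 0.01, only the groups compared, a replicate block, a lane term, lane 3 libraries alone, leaving out each library and, added after seeing the data, leaving Cth and Vldlr out of the member counts.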

Additional observations from a re-analysis of the deposited data

Results flagged for a closer look

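In 18 of the 288 groups of 4 libraries checked (6.25%, where chance gives about 1 in 20), 1 library lay so far from the other 3 that its gap to the nearest exceeded the 95% critical value of the Dixon test for 4 values. In WT dexamethasone, Eif2ak3 was at 55.9 CPM in library 4 and at 51.3 to 52.1 in the others and Ddit3 was at 12.3 CPM in library 3 and at 14.4 to 14.7 in the others. In WT dexamethasone, Nupr1 was at 10.6 CPM in library 3 and at 8.87 to 9.15 in the others. In KO with both agents, Eif2ak3 was at 36 CPM in library 4 and at 33.1 to 33.4 in the others and Ppp1r15a was at 93.1 CPM in library 3 and at 82.3 to 83.3 in the others. In KO with both agents, Aldh18a1 was at 15.1 CPM in library 3 and at 20 to 20.9 in the others and Slc38a2 was at 328 CPM in library 4 and at 316 to 318 in the others. In KO control, Eif2ak4 was at 34.4 CPM in library 4 and at 31 to 31.5 in the others and Ddit3 was at 23.1 CPM in library 2 and at 20.9 to 21.2 in the others. In KO control, Slc6a9 was at 2.5 CPM in library 1 and at 1.44 to 1.55 in the others. In KO LPS, Atf5 was at 201 CPM in library 2 and at 189 to 191 in the others. In WT LPS, Chac1 was at 3.94 CPM in library 1 and at 6.5 to 6.98 in the others and Slc3a2 was at 703 CPM in library 3 and at 599 to 612 in the others. In WT control, Mthfd2 was at 21.9 CPM in library 2 and at 23.4 to 23.6 in the others and Cbs was at 0.0501 CPM in library 1 and at 0 in the others. In KO dexamethasone, Mthfd2 was at 7.66 CPM in library 2 and at 6.61 to 6.78 in the others and Slc7a6 was at 21.1 CPM in library 3 and at 18.7 to 19 in the others. In WT with both agents, Cbs was at 0.101 CPM in library 1 and at 0 in the others. Cbs rests on a single-figure number of counts in these libraries. The group means given in the text include every library.

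The effect of dexamethasone under LPS differed between genotypes by a test of the difference itself (edgeR, adjusted p under 0.05) for 28 genes, given as the KO minus the WT log2 fold change. It was upward for Mthfd1l (3.10), Trib3 (1.83), Slc6a9 (1.37), Ddit3 (0.96), Ppp1r15a (0.96), Atf4 (0.89), Chac1 (0.71), Slc3a2 (0.69), Nupr1 (0.49), Atf5 (0.37) and Eif2ak4 (0.27). It was downward for Gpt2 (-0.77), Mthfd1 (-0.76), Phgdh (-0.73), Eif2ak3 (-0.66), Shmt2 (-0.65), Slc1a5 (-0.65), Slc7a5 (-0.62) and Psph (-0.59). The further differences downward were those of Aldh18a1 (-0.42), Psat1 (-0.41), Slc38a1 (-0.38), Got1 (-0.31), Cebpg (-0.29), Slc38a2 (-0.28) and Slc7a6 (-0.27). Both Cth (-1.94) and Vldlr (2.38) also passed, but both had passed the filter on low counts through libraries where they were high, so nothing is drawn from these values. The effect of LPS differed for 6 genes: Asns (-0.53), Atf5 (-0.28), Mthfd2 (-0.34), Psat1 (-0.56), Slc3a2 (-0.23) and Slc7a1 (-0.37). Libraries of KO with LPS and without it came from different lanes, and with a lane term 0 of these 6 differences were called. For dexamethasone under LPS each genotype was compared within a lane, so a lane term drops out of the difference. That fit therefore could not check the 28 calls, and a lane effect that does not simply add was not tested.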

How the results depend on the processing

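Over all alternatives 7386 values of 418 called effects of single genes were recomputed, of which 7097 kept direction and call, 282 kept direction and lost the call and 7 reversed. The 7 reversals came without library scaling: Eif2ak3 with both agents against control in WT (-0.0051), Eif2ak4 and Slc38a2 with both agents against dexamethasone in KO and WT (-0.069 and -0.035), Cebpg with LPS in KO and WT (-0.12 and -0.041) and Slc7a6 with LPS in KO and WT (-0.046 and -0.039), and the construction of that alternative leaves totals unscaled. Members called between genotypes moved as follows, with the cause not tested. With dexamethasone alone, from 0 to 1 without the filter and to 2 with only the groups compared. With LPS, from 9 to 0, and for the genotype difference of the LPS effect, from 6 to 0, with the lane term, which rests on 1 library.

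Counts over all genes moved more between genotypes. KO against WT in control gave 78 calls, 38 at an adjusted p under 0.01, 137 without the filter and 121 with only the groups compared. With dexamethasone it gave 130 calls, 62 at 0.01, 201 without the filter, 75 with the lane term, 82 on lane 3 libraries and 401 with only the groups compared. With LPS it gave 1468 calls, 829 at 0.01, 112 with the lane term and 667 with only the groups compared, and with both agents 8137 calls and 4834 with the lane term. The genotype difference of the LPS effect gave 536 calls, 260 at 0.01, 113 with the lane term and 314 with only the groups compared, and that of the dexamethasone effect 0 calls, 6 without the filter and 1 with only the groups compared. Leaving out 1 library at a time gave 30 to 32 members called for LPS in WT, 24 to 26 for dexamethasone, 32 to 35 for dexamethasone under LPS, 6 to 11 for KO against WT with LPS and 27 to 28 for the genotype difference of the dexamethasone effect under LPS.

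Replicate numbers share nothing in the labels but the number. Deviations of libraries with the same number correlated by -0.029 to 0.060 (median 0.0076, 112 pairs, 0 over 0.1). A fit with the replicate number as a block called 31 members for LPS in WT, 35 for dexamethasone under LPS, 11 for KO against WT with LPS and 28 for the genotype difference of the dexamethasone effect under LPS, and changed 1 of the 418 calls of single genes. Leaving Cth and Vldlr out, chosen after seeing the data, kept each of the 19 member counts within 1.5 times its value. Taking out so few genes could not have moved a count further, so this is no test of how stable the counts were.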
